A study of Mus musculus with 4 samples.

Results

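The 5 transcripts described here encode collagen chains of fibroblasts: Col1a1, Col1a2, Col3a1, Col5a1 and Col12a1. Ribosome footprints on them were counted in 4 libraries of mouse embryonic fibroblasts. The files list 63759 UCSC transcripts by ID, without gene names. Col1a1 was taken as uc007kzn.2 and Col12a1 as uc009qus.2. For Col1a2, Col3a1 and Col5a1, the transcript with the largest summed count among those of the gene's coding length was taken. Members were thus chosen by their summed footprint count, so their abundance is a description with no test. The comparison of wortmannin with control was not used to choose among transcripts. The 5 genes themselves were chosen with earlier results of these data known, which the adjusted p-values do not take into account.

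All cells were wild-type C57BL/6 embryonic fibroblasts grown to confluence, and every group was synchronised with dexamethasone (Dex), a glucocorticoid that sets the circadian clocks of cultured cells to a common phase. At 24 h after Dex, all cells were moved from 35 °C to 38.5 °C, and the inhibitor was applied at that time. The 2 control libraries received no inhibitor, and the 2 wortmannin libraries received 17β-hydroxy wortmannin, an inhibitor of PI3K. The sources used here give no dose, length of exposure or vehicle. The series text mentions independent experiments without tying libraries to them, so p-values measure the spread between these libraries, which may be technical. Deposited totals were 15376778 and 31110420 counts in the controls and 7677780 and 7485868 with wortmannin. mRNA levels were not analysed here, and fewer cells of a type, less mRNA per cell and fewer ribosomes per mRNA cannot be told apart in these bulk values.

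Fibrillar collagens are secreted proteins in which chains of glycine-rich repeats wind into a triple helix, and the helices assemble outside the cell into the fibrils that give connective tissue its strength. Fibroblasts are their main source. Type I collagen combines the products of Col1a1 and Col1a2, with more of the Col1a1 chain in each molecule. Type III is made of the Col3a1 chain alone, type V holds the Col5a1 chain and helps to start fibrils, and type XII, a homotrimer of the Col12a1 chain, sits on the fibril surface. PI3K signals through AKT and mTORC1, a regulator of mRNA translation.

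The coding sequences show what the chains share, and the repeat is printed here because every member carries a run of it. Whether the repeat bears on the change with wortmannin was not tested. A collagen helix is encoded by an in-frame repeat of 9 bases that begins with a glycine codon, GGNNNNNNN. The first 10 repeats of the longest uninterrupted run in each GENCODE M21 transcript (GRCm38) read as follows, 5′ to 3′ on the coding strand, with the GG of each glycine codon in capitals.
Col1a1: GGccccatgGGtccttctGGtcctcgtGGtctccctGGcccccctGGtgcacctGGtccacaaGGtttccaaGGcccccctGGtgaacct
Col1a2: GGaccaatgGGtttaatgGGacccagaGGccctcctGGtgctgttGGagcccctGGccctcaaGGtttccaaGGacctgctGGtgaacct
Col3a1: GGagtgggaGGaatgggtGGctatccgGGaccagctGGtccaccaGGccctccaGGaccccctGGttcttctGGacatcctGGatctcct
Col5a1: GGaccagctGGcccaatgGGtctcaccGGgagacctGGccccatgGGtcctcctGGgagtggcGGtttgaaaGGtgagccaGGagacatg
Col12a1: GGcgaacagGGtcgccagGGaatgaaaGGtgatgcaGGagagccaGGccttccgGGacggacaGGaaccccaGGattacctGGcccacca

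The run was 338 repeats long in Col1a1 (codons 168 to 1181), 339 in Col1a2 (97 to 1113), 344 in Col3a1 (164 to 1195) and 338 in Col5a1 (559 to 1572). It thus had nearly the same length in all 4 fibrillar chains and filled 69.8%, 74.1%, 70.5% and 55.2% of their codons. In Col12a1 the longest run held 32 repeats near the 3′ end (codons 2805 to 2900), or 3.13% of the codons, since most of that chain is not helical. Of 21894 genes with a complete coding transcript, 15 (0.0685%) held a run of at least 100 repeats, and all 15 were collagen genes. Glycine codons (GGN) made up 26.8% of Col1a1, 27.8% of Col1a2, 28.3% of Col3a1, 23.2% of Col5a1 and 9.17% of Col12a1, against a median of 6.03% over all genes. Proline codons (CCN) made up 19.0%, 16.3%, 19.5%, 17.9% and 8.55%, against a median of 5.26%.

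**Figure D1:**
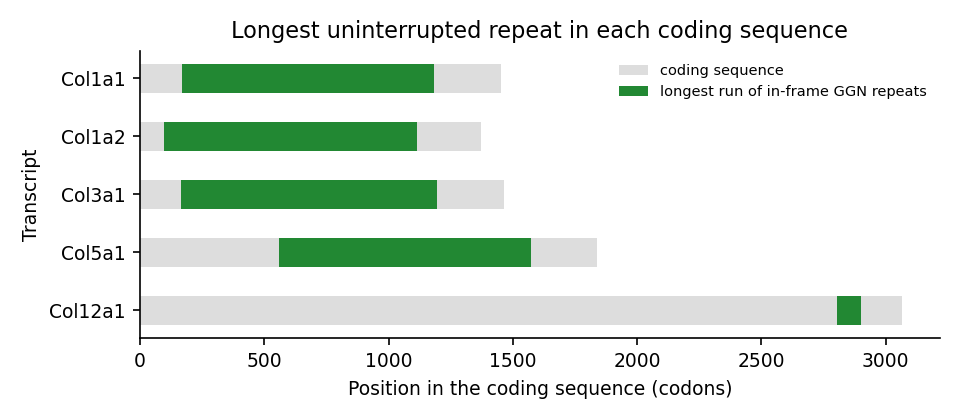
Map of the 5 coding sequences in codons from the start codon (x axis). Grey bars show the annotated coding sequence and green bars the longest uninterrupted in-frame GGN repeat, which spans 1014 to 1032 codons in the 4 fibrillar chains and 96 codons in Col12a1.

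Because repeats could make short reads ambiguous, every stretch of 28 bases of each coding sequence was looked up in the annotated transcripts of all other genes. None of the 4332 different stretches of Col1a1 and none of the 9168 of Col12a1 occurred elsewhere. In Col1a2, 3 of 4089 (0.0734%) also occurred in C1qtnf12. In Col5a1, 5 of 5487 (0.0911%) occurred in Col5a3, and in Col3a1, 39 of 4365 (0.893%) occurred in Gm47302. The sources used here do not state how long the footprints were.

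The names were checked against the files. Coding lengths in the files are 9 codons shorter than annotated ones, so Col1a1 has 1444 codons there, Col1a2 1363, Col3a1 1455, Col5a1 1829 and Col12a1 3056. The lengths of Col5a1 (chromosome 2, 27886425 to 28039514, GRCm38) and Col12a1 (chromosome 9, 79598991 to 79718831) belonged to no other gene with a complete coding transcript. The length of Col1a1 (chromosome 11, 94936224 to 94953042) was shared by Cecr2, Lmo7 and Nktr, that of Col1a2 (chromosome 6, 4504814 to 4541544) by Insr and Map3k5, and that of Col3a1 (chromosome 1, 45311538 to 45349706) by Ankar, Grin2a, Ift140 and Rrbp1. The summed count of uc007kzn.2 was 1119427, against 2350 for the next transcript of its length, and that of uc009avm.2, taken for Col1a2, was 704848 against 2290. For uc007awq.2, taken for Col3a1, it was 208436 against 26576.

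Neighbouring lines of the files were used only to discard names, by the share of neighbours whose lengths fit genes within 1000000 bp of the candidate. That share was 93.3% for Col1a1, 69.0% for Col1a2, 80% for Col5a1 and 43.5% for Col12a1, and 0% for every other gene of the lengths of Col1a1 and Col1a2. It did not settle Col3a1, at 25% for Col3a1 and 30% for Ift140. Another transcript of that length, uc008azm.2, fitted Ift140 at 75.8%, and uc008mqj.1 fitted Rrbp1 at 52.6%. The name Col3a1 for uc007awq.2 is therefore less certain than the other names.

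With wortmannin, footprints on both chains of type I collagen fell, Col1a1 to 0.592 and Col1a2 to 0.767 of the control level, whereas Col3a1, Col5a1 and Col12a1 did not pass the test. The comparison asked how ribosome occupancy of mRNAs differed when PI3K was inhibited during the warm shift. Levels are given in CPM, counts per 1000000 after TMM scaling, which adjusts library totals so that most transcripts do not change. They are thus relative to the other transcripts of a library, as are shares of the library. A change common to most transcripts would not be seen, so a level that stayed the same need not mean unchanged ribosome occupancy per cell. Of the 5 members, 2 fell and none rose (quasi-likelihood test in edgeR, with p adjusted by the Benjamini-Hochberg method over all transcripts and a threshold of 0.05). Of all 26602 transcripts tested, 17.3% fell and 15.8% rose, or 33.1% in either direction. The members' median log2 fold change was -0.11, against 0.0032 over all transcripts tested, and 5 transcripts are too few to set apart from that background.

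**Figure D2:**
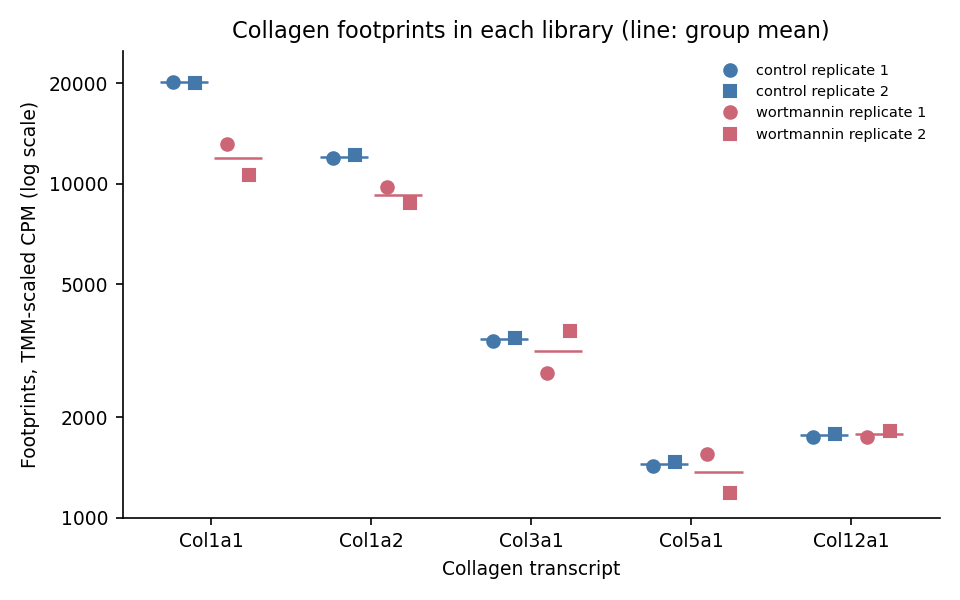
Footprints on each collagen transcript in each of the 4 libraries (y axis, TMM-scaled CPM, log scale), with lines at group means. Both wortmannin libraries lie below both control libraries for Col1a1 and Col1a2, and the groups overlap for Col3a1, Col5a1 and Col12a1.

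Col1a1, the major chain of type I collagen, had 20122 and 20070 CPM in control replicates 1 and 2, and 13187 and 10615 CPM in wortmannin replicates 1 and 2. Both wortmannin libraries were low and the groups did not overlap, which also held for Col1a2 and for none of the other 3 members. Over all transcripts, groups did not overlap for 68.9%. The Col1a1 level went from 20096 ± 36.4 to 11901 ± 1819 CPM (SD, n = 2 each), for a log2 difference of -0.76 ± 0.14 (SE; adjusted p by edgeR = 0.00363). The counts behind it were 313432 and 627932 in the controls and 98272 and 79791 with wortmannin, so counting error was small beside the spread of the wortmannin pair. Without control replicate 1 or 2 the fold change was -0.76 in both cases but no longer passed (adjusted p by edgeR = 0.0793 and 0.102). It was -0.60 without wortmannin replicate 2 and -0.93 without wortmannin replicate 1, and passed in both.

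Col1a2, the partner chain in type I collagen, had 11948 and 12158 CPM in the controls and 9743 and 8748 CPM with wortmannin. The lower wortmannin value was again in replicate 2. The level went from 12053 ± 148 to 9245 ± 704 CPM (SD, n = 2 each), for a log2 difference of -0.38 ± 0.12 (SE; adjusted p by edgeR = 0.0346). This call was near the threshold. It was lost with DESeq2 (adjusted p = 0.0581), with upper quartile scaling (edgeR, adjusted p = 0.0604), with a replicate block (0.0888), and without control replicate 1 (0.354) or control replicate 2 (0.432).

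Col3a1, the chain of type III collagen, had 3391 and 3458 CPM in the controls and 2710 and 3623 CPM with wortmannin. One wortmannin library was below both controls and the other above both. The log2 fold change was -0.11 ± 0.14 (SE; adjusted p by edgeR = 0.58). It was -0.33 without wortmannin replicate 2, which passed (adjusted p by edgeR = 1.81e-10), and 0.069 without wortmannin replicate 1, so the wortmannin pair gave no common direction.

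Col5a1, a chain of type V collagen, had 1430 and 1470 CPM in the controls and 1558 and 1189 CPM with wortmannin. Here wortmannin replicate 1 was the high library and replicate 2 the low one, the reverse of Col3a1. The log2 fold change was -0.078 ± 0.14 (SE; adjusted p by edgeR = 0.693). It was -0.30 without wortmannin replicate 1, which passed (adjusted p by edgeR = 8.08e-08), and 0.11 without wortmannin replicate 2, which did not (adjusted p = 0.0786). With 1 wortmannin library left, the spread comes from the close control pair alone.

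Col12a1, the chain of the fibril-associated type XII collagen, had 1751 and 1783 CPM in the controls and 1744 and 1824 CPM with wortmannin. All 4 libraries lay close together. The level was 1767 ± 22.1 in the controls and 1784 ± 56.4 CPM with wortmannin (SD, n = 2 each), and the log2 fold change was 0.014 ± 0.10 (SE; adjusted p by edgeR = 0.932). Its sign turned with library totals in place of TMM scaling (-0.017), without a filter on low counts (-0.021), and without control replicate 1 or wortmannin replicate 2.

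**Figure D3:**
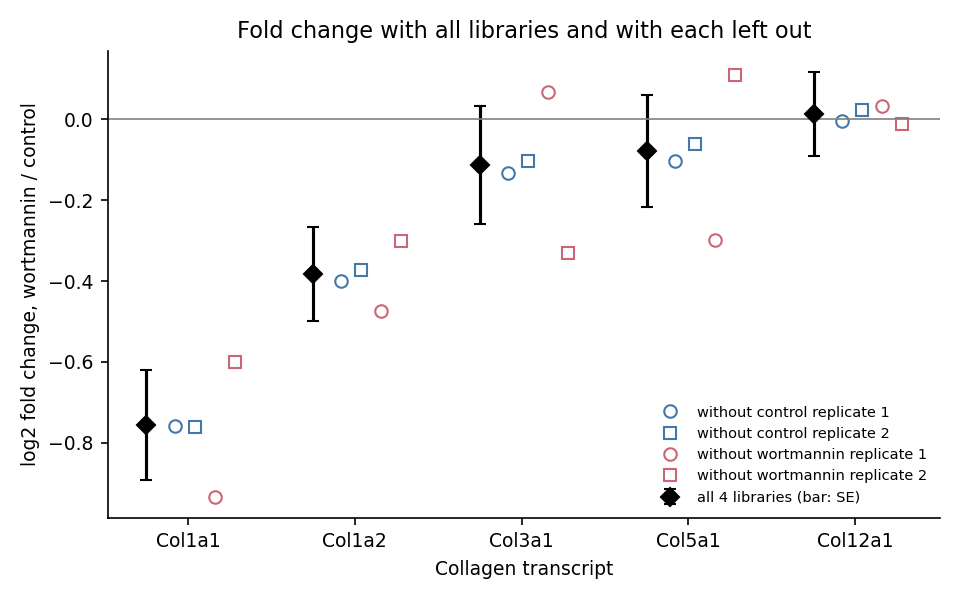
Log2 fold change of wortmannin over control (y axis) for each collagen transcript, with all 4 libraries (black diamonds, bars are SE) and with each library left out (open symbols). Col1a1 stays between -0.93 and -0.60 and Col1a2 between -0.47 and -0.30, while Col3a1, Col5a1 and Col12a1 take both signs.

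Together the 5 transcripts held 3.91% and 3.92% of all counts in the controls, and 2.81% and 2.61% with wortmannin. Col1a1 alone held 2.04% and 2.02% in the controls and 1.28% and 1.07% with wortmannin. Col1a2 held 1.21% and 1.22%, and then 0.946% and 0.878%. The type I chains thus made up most of the footprints on these 5 transcripts and most of their difference. Footprints on other collagens are not in this sum. Col3a1 held 0.343% and 0.348% in the controls and 0.263% and 0.364% with wortmannin. Col5a1 stood at 0.145% and 0.148%, and then at 0.151% and 0.119%. Col12a1 stood at 0.177% and 0.179%, and then at 0.169% and 0.183%. Wilson 95% intervals of these single-transcript shares were at most 0.00795 percentage points to either side, and cover counting error only. The shares of Col1a1, Col1a2 and the 5 together did not overlap between groups (two-sided exact permutation test, p = 0.333, the smallest that 2 against 2 libraries can give). For Col3a1, Col5a1 and Col12a1 the same exact test gave p = 1.0. Sets of transcripts with equal counts in all 4 libraries occur in the files, so a footprint may enter the totals more than once. With 1 transcript kept of each such set, or with TMM-scaled totals, the difference of the 5 together went from -1.21 percentage points to between -1.30 and -1.13. Transcripts with nearly equal counts, such as isoforms of the same gene, were all kept, so the totals may still count footprints more than once.

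The make-up of the footprints on the 5 transcripts moved with these changes. Col1a1 made up 52.1% and 51.5% of the footprints on the 5 transcripts in the controls, and 45.6% and 40.8% with wortmannin. Col1a2 made up 30.9% and 31.2%, and then 33.7% and 33.6%. Col3a1 made up 8.77% and 8.88% in the controls and 9.36% and 13.9% with wortmannin. These percentages add to 100 within a library, so a lower share of Col1a1 raises the others.

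Levels of different chains were compared per codon. Control densities were 13917 ± 25.2 CPM per 1000 codons for Col1a1, 8843 ± 109 for Col1a2, 2354 ± 32.9 for Col3a1, 793 ± 15.5 for Col5a1 and 578 ± 7.24 for Col12a1 (SD, n = 2). Each step in this order was larger than the spread of the controls. With wortmannin the densities were 8242 ± 1259, 6783 ± 516, 2176 ± 444, 751 ± 142 and 584 ± 18.4 (SD, n = 2). The order was the same, but Col1a1 and Col1a2 now differed by about the SD of Col1a1, and Col5a1 and Col12a1 by about the SD of Col5a1. In wortmannin replicate 2, Col5a1 was at 650 and Col12a1 at 597 CPM per 1000 codons.

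The balance of the type I chains is a ratio within a library and does not depend on scaling. Col1a1 carried 1.59 and 1.56 times as many footprints per codon as Col1a2 in the controls, and 1.28 and 1.15 times as many with wortmannin. The groups did not overlap, and the log2 ratio was lower by 0.38 on average, with a range of 0.30 to 0.46 when each library was left out. Col1a1 to Col3a1 went from 5.98 and 5.85 to 4.90 and 2.95, and Col1a1 to Col5a1 from 17.8 and 17.3 to 10.7 and 11.3. The exact permutation test gave p = 0.333 for each of these 3 ratios, the smallest possible here, and an adjusted p of 0.5 over the 6 pairs compared. Whether Col1a1 changed more than the other chains could therefore not be decided by this test.

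The ratio of Col1a2 to Col3a1 was 3.76 and 3.75 in the controls and 3.84 and 2.58 with wortmannin, so only wortmannin replicate 2 stood apart. Col5a1 to Col12a1 was 1.36 and 1.38, and then 1.49 and 1.09, with a wortmannin library on each side of the controls. The exact permutation test gave p = 1.0 for both.

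Col5a2 encodes the partner of Col5a1 in type V collagen. It was added after the values had been seen, and was taken by its length of 1488 codons and the largest summed count, as uc007awr.1. Ptprs shares this length. Its levels were 1644 and 1702 CPM in the controls and 1825 and 1696 CPM with wortmannin, so the groups overlapped. The log2 fold change was 0.074 ± 0.11 (SE; adjusted p by edgeR = 0.623). Without wortmannin replicate 2 it was 0.13 and passed (adjusted p by edgeR = 0.0267). Per codon, Col5a1 to Col5a2 was 0.708 and 0.703 in the controls and 0.694 and 0.571 with wortmannin (exact permutation test, p = 0.333, adjusted p = 0.5), and the groups did not overlap. The log2 difference was -0.16, with -0.31 without wortmannin replicate 1 and -0.023 without wortmannin replicate 2, so it came mostly from replicate 2.

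**Figure D4:**
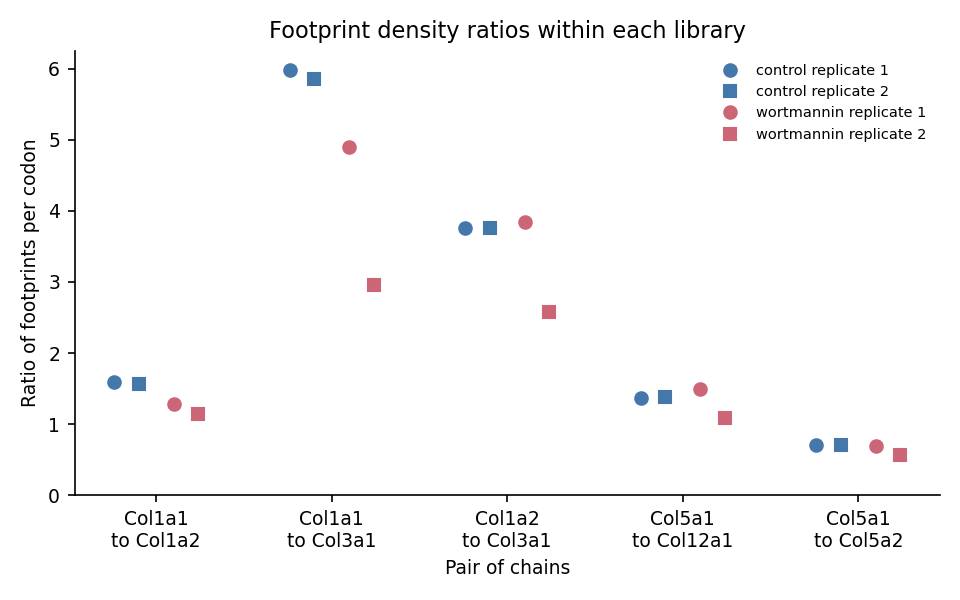
Ratio of footprints per codon between pairs of collagen chains (y axis, from 0) in each of the 4 libraries. The Col1a1 to Col1a2 ratio is 1.56 to 1.59 in the controls and 1.15 to 1.28 with wortmannin, and wortmannin replicate 2 is the lowest library for each of the 5 pairs drawn (Col1a1 to Col5a1 is not drawn).

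Among all transcripts the collagens were near the top by level. Col1a1 ranked 2 and 3 by CPM in control replicates 1 and 2, and 17 in both wortmannin libraries, where isoforms of other genes are ranked separately. Col1a2 ranked 14 in both controls and 18 in both wortmannin libraries. Of the 84 transcripts with a mean of at least 1000 CPM, 33 rose and 16 fell, with a median log2 fold change of 0.13. Isoforms count separately here too, so these are not counts of genes or of independent rows. For example, the adjacent transcripts uc007bju.2 and uc007bjv.2, at means of 19010 and 18636 CPM and both at 0.44, each count as a rise. Of these 84, 12 had a lower fold change than Col1a1, and 15, Col1a1 included, a lower one than Col1a2. Among 2621 transcripts of 1000 to 2000 codons the median was 0.18, with 25.8% higher and 9.58% lower. Of these 2621, 79 lay below Col1a1, 304 below Col1a2, 709 below Col3a1 and 769 below Col5a1.

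**Figure D5:**
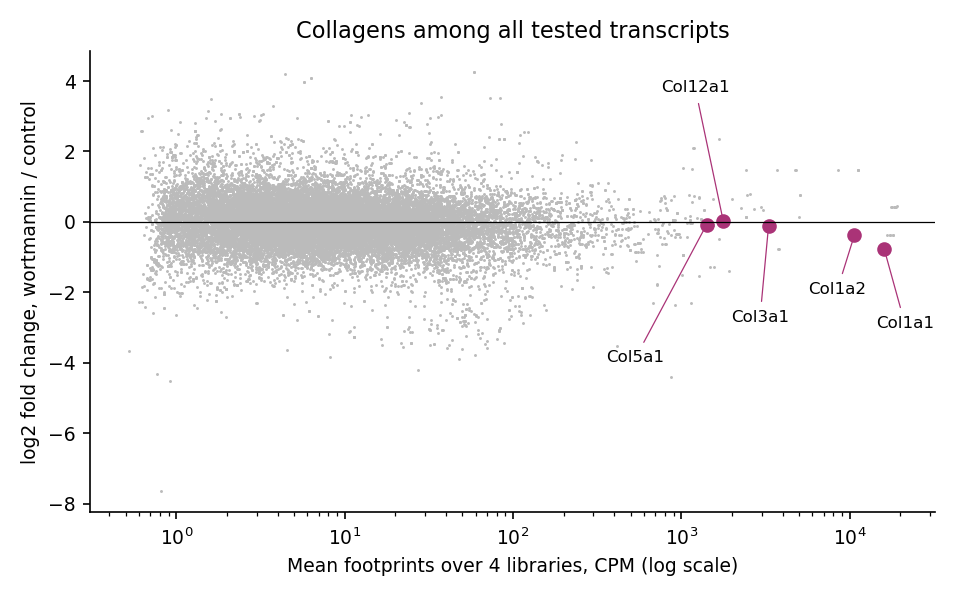
Log2 fold change of wortmannin over control (y axis) against mean CPM over the 4 libraries (x axis, log scale) for the 26602 transcripts tested (grey). The 5 collagens (purple) are among the most abundant, with Col1a1 at -0.76 and Col1a2 at -0.38.

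Other genes of collagen biology could be named only where a coding length belonged to 1 gene alone. Over all 26602 transcripts tested, 15.8% rose and 17.3% fell, and the lists of collagens below are too short to set apart from that. Of 11 fibrillar collagens on the list, the 4 members, named as described above, were counted: 2 fell, none rose and 2 did not pass. Col5a2, also on the list but added later by length and summed count, did not pass either. Of 33 other collagens, 7 were named and 5, with Col12a1, tested, of which 1 rose, none fell and 4 did not pass, with a median log2 fold change of 0.38. That median is the value of Col14a1, which had 12 to 54 counts a library and ran from 0.059 to 1.21 with each library left out. The rise was Col6a3, a chain of the microfibril-forming type VI collagen, which had 696 and 659 CPM in the controls and 904 and 1346 CPM with wortmannin (log2 fold change 0.73 ± 0.17, SE; edgeR, Benjamini-Hochberg adjusted p = 0.0118). It did not pass without control replicate 1 or 2 (adjusted p by edgeR = 0.0719 and 0.118), and the log2 fold change was 0.42 without wortmannin replicate 2. Col7a1 and Col17a1, which anchor epithelia, and Col14a1, a relative of Col12a1, had at most 4.96 CPM in any library and did not pass. Col6a4 and Col6a5 had 0 to 3 counts and were not tested. None of the 36 genes for collagen folding, processing and cross-linking could be named, so nothing is said of them here.

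Of 34 other matrix genes, 8 were named and 7 tested. Of these, 2 rose, 2 fell and 3 did not pass, with a median log2 fold change of 0.12. Over all 26602 transcripts tested, 15.8% rose and 17.3% fell, and the list is too short to set apart from that background. Fbn1, the main protein of fibrillin microfibrils and the one fibroblast marker that could be named, rose by 0.33 ± 0.10 on the log2 scale, from 329 and 328 to 397 and 431 CPM. Tnxb, a tenascin that binds fibrillar collagen, rose by 0.91 ± 0.20 from low levels of 4.24 and 3.42 to 6.58 and 7.45 CPM. In edgeR, adjusted p was 0.0351 for Fbn1 and 0.00919 for Tnxb. Nid1, a basement membrane linker, fell by 0.64 ± 0.10, from 117 and 115 to 76.0 and 72.9 CPM. Ltbp4, which binds latent TGF-beta, fell by 0.44 ± 0.13, from 297 and 282 to 237 and 190 CPM. In edgeR, adjusted p was 0.00206 for Nid1 and 0.0264 for Ltbp4. Hspg2, the proteoglycan perlecan, was at 0.12 ± 0.13, with 1179 and 1191 CPM in the controls and 1436 and 1140 CPM with wortmannin. Lama3 was not tested. Lrp1, an endocytic receptor, was the 1 named gene of 16 for collagen breakdown and uptake. It rose from 1578 and 1518 to 2406 and 2483 CPM (0.66 ± 0.10, SE; adjusted p by edgeR = 0.00199). Without control replicate 1 or 2, the calls of Fbn1, Nid1, Ltbp4 and Lrp1 were lost, and that of Tnxb without control replicate 2. With DESeq2 those of Fbn1 (adjusted p = 0.0918) and Ltbp4 (0.0519) did not pass. The Fbn1 call was also lost in edgeR with the replicate block (adjusted p = 0.0858), with library totals in place of TMM scaling (0.0514) and without a filter on low counts (0.0608). Without wortmannin replicate 2, the log2 fold change of Ltbp4 was -0.28.

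Of the 4 markers of other cell types that could be named, 3 were at or near 0 and Nes was not. The cartilage gene Acan had at most 1 count in any library, and the muscle genes Ttn and Ryr1 at most 11 and 2. Those are 2 of 7 listed muscle genes. The transcript named Myh4 below, a muscle myosin not on this list, had a mean of 63.8 CPM, but its name is uncertain. Nes, listed as a neural marker, had 13.8 to 18.9 CPM in all 4 libraries. No macrophage, endothelial, epithelial or adipocyte marker could be named, so these cell types were not checked.

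By centred log2 CPM over the 4 libraries, the named genes of at least 10 CPM with the pattern nearest to each member were found among 166 others. Myh4, Srrm2 and Nid1 were nearest to Col1a1, at Euclidean distances of 0.118, 0.167 and 0.221. The name Myh4 is uncertain, because it is one of a row of adjacent myosin genes of similar length. Nup214, Prrc2b and Apc were nearest to Col1a2 (0.0783, 0.0867 and 0.129), and Fasn, Flnc and Cad to Col3a1 (0.0759, 0.103 and 0.108). Ncor1, Dlg5 and Ric1 were nearest to Col5a1 (0.0602, 0.111 and 0.116), and Tnks1bp1, Arfgef2 and Tln1 to Col12a1 (0.0507, 0.0526 and 0.0543). With 4 libraries such likeness is common: 151 transcripts were at least as near to Col1a1 as Myh4. No collagen was among the 3 nearest of another, and Col1a1 and Col1a2 lay 0.396 apart. Few collagens besides the members could be named at 10 CPM or more, so this says little about whether collagens moved together.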

How the data were processed

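Per the labels' protocols, cells were lysed in cycloheximide, which holds ribosomes on mRNA, footprints were cut with RNase I, and ribosomes were pelleted and rRNA depleted. The deposited values are whole-number counts of footprints per UCSC transcript, not normalized by the authors as far as the values show, with a coding length in codons as another deposited column. The submitters' processing notes name CASAVA 1.8, STAR 2.7.0 and mm10. Which program assigned reads to transcripts was not given in the sources used here.

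The members and gene lists were chosen with earlier results of these data known. Annotated lengths came from GENCODE M21 (GRCm38, which is mm10). After 9 codons were taken off them, 94.6% of 1466 transcripts over 1500 codons had an annotated length, against at most 64.5% for other shifts from 0 to 20. Other genes were named where the length was theirs alone and at least 0.5 of neighbouring lines (within 25, of at least 300 codons) fitted, which gave 309 genes. Of several transcripts the most abundant was used. For nearest patterns, the 3 closest named genes of at least 10 CPM were taken.

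Counts were fitted with edgeR 4.0.16 in R 4.3.3 (TMM, default filter with a minimum count of 10, quasi-likelihood F test, Benjamini-Hochberg adjustment over all 26602 transcripts, threshold 0.05). Standard errors were derived from F as the absolute log2 fold change over its square root. The fit was tested on simulated data. Alternatives used DESeq2 1.42.0, other scalings, no filter, a replicate block and each library left out. Python 3.11.15 and scipy 1.17.1 gave the shares, intervals and exact tests.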

Additional observations from a re-analysis of the deposited data

How the results depend on the processing

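With each library left out in turn, log2 fold changes ran from -0.93 to -0.60 for Col1a1, -0.47 to -0.30 for Col1a2, -0.33 to 0.069 for Col3a1, -0.30 to 0.11 for Col5a1 and -0.012 to 0.033 for Col12a1. A single library left in a group takes its spread from the other pair. Those of Col7a1 (-0.84 to 0.88), Hspg2 (-0.069 to 0.28) and Nes (-0.15 to 0.28) also changed sign. Transcripts called ran from 1269 to 5724 higher and 1853 to 6283 lower; with all libraries, DESeq2 called 2302 higher and 2691 lower. Col1a1 passed with DESeq2, with both other scalings, without a filter and with the replicate block. Col1a2 was at -0.37 with DESeq2, -0.32 with upper quartile scaling and -0.38 with the replicate block, and passed in none of these 3; the cause was not tested. Same-numbered libraries deviated with a correlation of -0.059, so the numbers were not taken to pair them, and the block left 3729 higher and 4134 lower. Col12a1 turned to -0.017 with library totals and -0.021 without a filter. Other transcripts of the same lengths, which the check above gives to other genes or to none, were at 0.41 and -0.23 for Col1a1 (uc009sdr.1, uc007uwb.2), 0.74 and -0.36 for Col1a2 (uc009krd.2, uc011xaz.1) and 0.61, 0.29 and -0.22 for Col3a1 (uc008vkc.2, uc008azm.2, uc008mqj.1). Depth did not limit the members, each with 8940 counts or more in every library.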
